A study of Mus musculus with 12 samples.

Results

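The 6 genes described here are Cd44, Lepr, Itga11, Hic1, Adamtsl3 and Fam169b, 6 of the 24421 gene symbols in a table of RNA-seq counts from mouse embryo heads. They were chosen from these data: 5 for the largest rises in homozygous mutant libraries at embryonic day 9.5 (E9.5), and Cd44 for a rise at E9.5 only. Their differences between genotypes at E9.5, and for Cd44 also the comparison of the stages, are therefore descriptions and carry no test. All embryos were of strain C57Bl/6 and carried altered Eftud2, which encodes a GTPase of the U5 particle of the spliceosome, in neural crest cells. The 12 libraries formed 4 groups of 3, namely Eftud2+/- (heterozygous, the controls) and Eftud2-/- (homozygous) embryos of either stage, E9.0 or E9.5, without treatment. The controls thus carried an altered allele as well, and no group without one was analysed here. The sources used here name neither the Cre driver nor how many embryos went into a library, and nothing says that replicates came from separate embryos, so p-values measure only the spread between these libraries. The labels disagree on the material: neural crest cells by source, cranial nerve ganglia by tissue, and heads in the protocol.

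Mesenchyme is the loose embryonic tissue that lies between epithelia. In the head it comes from neural crest and from cranial mesoderm, and it sits in a matrix of hyaluronan, collagens and microfibrils. Cd44 encodes the main cell surface receptor for hyaluronan. Itga11 encodes an integrin alpha chain that pairs with the product of Itgb1 to bind fibrillar collagen, and is known from fibroblasts. Lepr encodes the leptin receptor, a cytokine receptor that signals through JAK kinases and STAT factors and that marks stromal cells of adult bone marrow. Hic1 encodes a zinc finger repressor of transcription, is a known target of p53 and marks mesenchymal progenitors in several adult tissues. Adamtsl3 encodes a secreted matrix glycoprotein of the ADAMTS-like family, which resembles the ADAMTS proteases but lacks the protease domain.

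The label mesenchymal was set beside markers of mesenchyme. Their change with genotype cannot show in which cells the 6 genes are expressed. Of 14 general mesenchyme markers, all tested, 0 were called at E9.5 by edgeR's quasi-likelihood test, where 1.19% of all tested genes were called higher and 0.702% lower, so a count of 0 among 14 says little about the label. At an unadjusted p below 0.05 the count at E9.5 was 2 of 14, in opposite directions. Lum was higher, at a log2 fold change of 0.81, and Prrx1 lower, at -0.63. The share of all tested genes at that level is not reported here for E9.5, so this count is given without its background. The median log2 fold change of the 14 markers was 0.01 (E9.0) and 0.11 (E9.5). Their summed level was 1004 to 1674 CPM (counts of a gene relative to the scaled size of its library) in the heterozygous libraries at E9.5 and 1460 to 1860 CPM in the homozygous ones, so the genotypes overlapped. The 6 genes are called by their names below. In RNA from whole heads, more cells that express a gene and more RNA per cell cannot be told apart.

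All 6 genes had promoter windows in the RefSeq table (mouse build GRCm38.p6), 9 windows of 300 bases that run from 250 bases before a transcription start to 50 bases after it. The windows are shown because these genes were chosen for a shared direction at E9.5. An E box of the form CAGGTG, searched on both strands (CACCTG on the other), was found in 4 of the 9 windows, in 4 of the 6 genes, while 20.2% of the 32851 windows in the table hold it. Those 4 windows follow, 5′ to 3′ on the strand of the gene, with the E box in capitals.
Lepr, first window, chr4:101717157-101717456, plus strand: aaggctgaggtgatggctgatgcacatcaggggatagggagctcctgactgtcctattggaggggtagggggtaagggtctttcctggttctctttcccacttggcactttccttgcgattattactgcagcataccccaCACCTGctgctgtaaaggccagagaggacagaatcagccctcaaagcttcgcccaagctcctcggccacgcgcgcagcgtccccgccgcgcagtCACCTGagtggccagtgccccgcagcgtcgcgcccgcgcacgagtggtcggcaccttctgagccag
Itga11, chr9:62677605-62677904, plus strand: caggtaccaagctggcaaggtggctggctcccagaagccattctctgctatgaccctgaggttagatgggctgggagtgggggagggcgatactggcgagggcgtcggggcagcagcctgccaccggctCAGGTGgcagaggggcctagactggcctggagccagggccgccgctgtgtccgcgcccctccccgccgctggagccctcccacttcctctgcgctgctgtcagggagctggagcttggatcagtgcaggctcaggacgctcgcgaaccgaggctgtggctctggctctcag
Hic1, second window, chr11:75168103-75168402, minus strand: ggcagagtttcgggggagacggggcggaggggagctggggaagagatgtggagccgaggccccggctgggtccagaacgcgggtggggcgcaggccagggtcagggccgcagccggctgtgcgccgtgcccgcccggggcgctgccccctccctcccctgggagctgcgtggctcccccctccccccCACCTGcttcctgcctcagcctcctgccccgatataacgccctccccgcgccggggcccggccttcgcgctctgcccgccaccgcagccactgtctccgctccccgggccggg
Adamtsl3, chr7:82335444-82335743, plus strand: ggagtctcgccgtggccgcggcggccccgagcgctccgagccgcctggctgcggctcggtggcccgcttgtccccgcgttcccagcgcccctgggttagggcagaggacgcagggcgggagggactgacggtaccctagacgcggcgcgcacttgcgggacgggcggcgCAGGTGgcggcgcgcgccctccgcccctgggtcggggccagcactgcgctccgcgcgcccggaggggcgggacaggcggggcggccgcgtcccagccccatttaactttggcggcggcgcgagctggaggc

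The match in Itga11 began 121 bases before the start, that in Hic1 63 bases before it and that in Adamtsl3 81 bases before it. The Lepr window held a pair of matches, 110 and 16 bases before the start. A GC box (GGGCGG, both strands) was found in 6 of the 9 windows and is present in 35.7% of all windows. The half-site bound by p53, searched by its name on both strands, was in 0 of the 9 windows against 8.36% of all windows, and the TEAD motif GGAATG was in 0 against 14.7%. A TATA box (TATAAA) was found in 1 of the 9 windows, the first of Fam169b, where it lay after the start on the opposite strand, and is in 13.6% of all windows. The windows of Adamtsl3 and the second of Hic1 were rich in G and C, at percentiles 98.6 and 97.9 of the table, whereas the first of Fam169b was at percentile 29.7. A match says only that the letters are there, and the counts hold no measure of binding.

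Levels are given in CPM, with library sizes scaled by the trimmed mean of M values (TMM). Cd44, the hyaluronan receptor, measured 17.5, 17.9 and 15.2 CPM in heterozygous replicates 1 to 3 at E9.0 and 17.4, 15.3 and 14.4 CPM in homozygous replicates. The E9.5 values were 12.6, 12.6 and 12.3 CPM in controls and 19.0, 22.5 and 21.7 CPM in mutants. The genotypes overlapped at E9.0 and stood apart at E9.5. The means at E9.5 were 12.5 ± 0.146 and 21.1 ± 1.80 CPM (SD, n = 3 each), and the log2 fold change was 0.76 ± 0.09 (SE), against -0.10 ± 0.10 at E9.0. From E9.0 to E9.5 its level was lower in heterozygous heads, by a log2 fold change of -0.43 ± 0.10, and higher in homozygous heads, by 0.43 ± 0.10. The difference at E9.5 thus lay between a control level below that of E9.0 and a mutant level above it. Cd44 was read from 213 to 732 counts per library, the deepest sampling among the 6 genes.

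Lepr, the leptin receptor, was at 2.79, 2.95 and 1.85 CPM in heterozygous heads at E9.0 and at 3.08, 3.61 and 2.90 CPM in homozygous ones. At E9.5 the levels were 2.68, 1.5 and 3.09 CPM in controls and 6.34, 5.16 and 5.43 CPM in mutants. The highest control library at E9.5 was thus below the lowest mutant library, whereas at E9.0 the groups overlapped. The mean was 2.42 ± 0.827 CPM in heterozygous and 5.64 ± 0.617 CPM in homozygous heads at E9.5 (SD, n = 3 each), a ratio of 2.33 and a log2 fold change of 1.23 ± 0.22 (SE). Heterozygous heads held nearly the same mean at E9.0, 2.53 ± 0.594 CPM, so that the change with stage was -0.05 ± 0.25 in controls and 0.81 ± 0.23 in mutants on the log2 scale. Leprot, the nearest gene upstream of Lepr, gave a log2 fold change of 0.14 at E9.5 (adjusted p = 0.576).

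Itga11, the integrin chain, measured 0.880, 0.429 and 0.473 CPM in heterozygous heads at E9.0 and 0.751, 1.26 and 1.22 CPM in homozygous ones. At E9.5 the values were 0.701, 0.675 and 1.10 CPM and 1.99, 1.63 and 2.29 CPM. The groups overlapped at E9.0, where heterozygous replicate 1 was above homozygous replicate 1, and stood apart at E9.5. Mean levels at E9.5 were 0.825 ± 0.239 and 1.97 ± 0.330 CPM (SD, n = 3 each), with 1.26 ± 0.27 (SE) as the log2 fold change. Its counts ran from 8 to 61 per library. In both genotypes the mean was higher at E9.5 than at E9.0, with log2 fold changes of 0.53 ± 0.35 in controls and 0.84 ± 0.29 in mutants.

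Hic1, the repressor, was at 0.440, 0.322 and 0.430 CPM in heterozygous heads at E9.0 and at 0.601, 0.687 and 1.35 CPM in homozygous ones. At E9.5 it was at 0.731, 0.469 and 0.781 CPM and at 1.69, 1.60 and 1.16 CPM. The genotypes did not overlap at either stage. The ratio of the means was nearly equal, 2.21 (E9.0) and 2.24 (E9.5), with log2 fold changes of 1.14 ± 0.41 and 1.18 ± 0.29 (SE). Homozygous replicate 3 at E9.0 was far above the other libraries of its group, and without it the E9.0 log2 fold change was 0.70. The level was also higher at E9.5 in both genotypes, by log2 fold changes of 0.72 ± 0.39 and 0.76 ± 0.31. Counts were low, at 6 to 52 per library.

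Adamtsl3, the matrix glycoprotein, had the largest ratio and the fewest counts. It measured 0.220, 0.429 and 0.172 CPM in heterozygous heads at E9.0 and 0.751, 0.515 and 0.810 CPM in homozygous ones, so that the groups did not overlap. At E9.5 it measured 0.396, 0.147 and 0.0710 CPM against 0.876, 0.829 and 0.975 CPM, again without overlap. These levels rest on 13, 5 and 2 counts in the heterozygous and 26, 27 and 26 counts in the homozygous libraries at E9.5. Its log2 fold changes were 1.32 ± 0.51 (SE, E9.0) and 2.06 ± 0.41 (SE, E9.5). Without heterozygous replicate 1, which held 13 of those counts, the E9.5 value was 2.93. The ratio of summed counts at E9.5, scaled by library size, was 4.22 with an exact 95% interval of 2.56 to 7.28, which covers counting error only. Adamtsl3 reached the CPM level of the low-count filter in all homozygous libraries but in 0 of 3 heterozygous libraries at E9.0 and 1 of 3 at E9.5, so it was tested at all only through the group in which it is high.

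Fam169b was at 1.39, 0.804 and 1.16 CPM in heterozygous heads at E9.0 and at 2.25, 1.32 and 2.09 CPM in homozygous ones, with overlap. At E9.5 the values were 0.945, 0.587 and 0.603 CPM and 1.99, 1.81 and 1.5 CPM, without overlap. Mean levels at E9.5 were 0.712 ± 0.202 and 1.77 ± 0.248 CPM (SD, n = 3 each), with 1.30 ± 0.27 (SE) as the log2 fold change. Its control level was lower at E9.5 than at E9.0, by a log2 fold change of -0.62 ± 0.30, while the mutant level was nearly the same, at -0.07 ± 0.26. Fam169a, its paralog, gave log2 fold changes of -0.12 at E9.0 (adjusted p = 0.620) and -0.02 at E9.5 (adjusted p = 0.967).

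**Figure D1:**
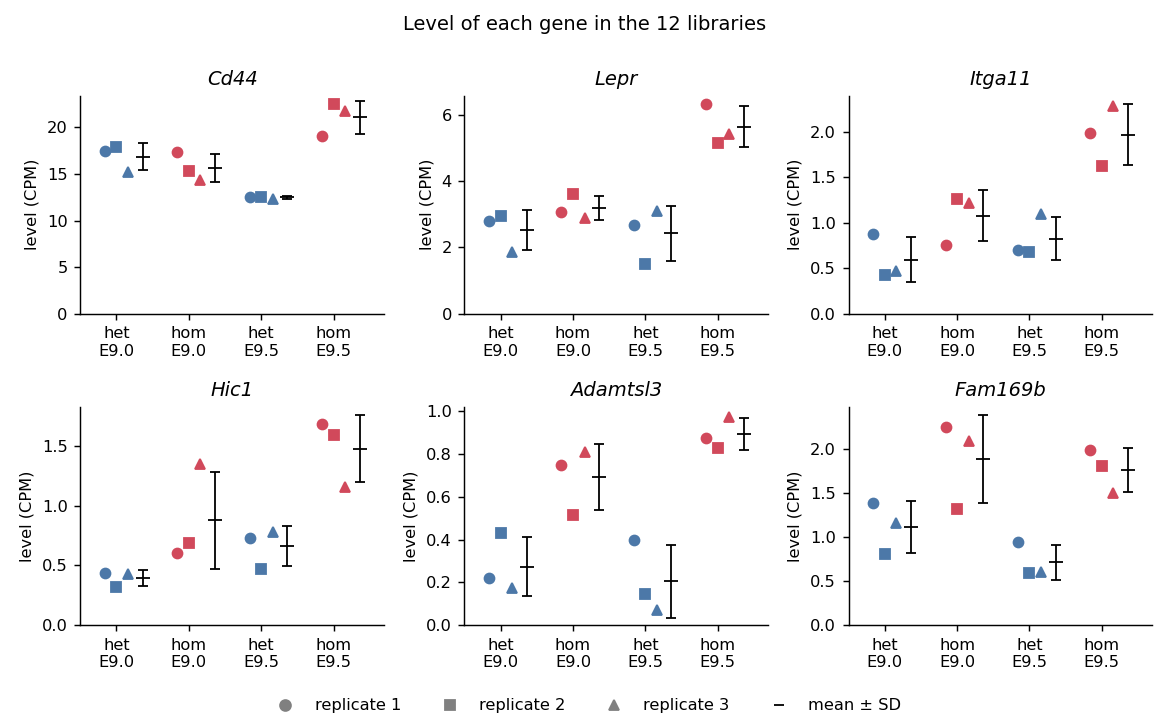
Level in CPM of each gene (vertical axis, from 0) in heterozygous (blue, het) and homozygous (red, hom) libraries at E9.0 and E9.5; each symbol is a library, and the black bar gives the mean ± SD of 3 libraries. At E9.5 the homozygous libraries lie above the heterozygous ones for all 6 genes, whereas at E9.0 only Hic1 and Adamtsl3 show no overlap.

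At E9.0, in libraries that were not used to choose them, 4 of the other 5 genes can be tested. In edgeR the estimate of each gene's spread draws on all 12 libraries, among them the E9.5 libraries by which the genes were chosen. Adamtsl3 passed the filter only through the homozygous libraries, so its E9.0 values are a description. Of the 4, 0 were called higher at an adjusted p below 0.05 in edgeR's quasi-likelihood test, against 0.432% of the 14810 genes tested. Of the 4 genes, 4 had a log2 fold change above 0, against 49% of all tested genes. An unadjusted p below 0.05 in edgeR was reached by 3, all higher, against 13.3% of all tested genes in either direction. Only 1 (Hic1) was higher without overlap, against 9.07%. Lepr had the smallest value, 0.37 with a 95% interval of -0.18 to 0.92 (adjusted p = 0.563), and without heterozygous replicate 3 it was 0.16. Itga11 gave 0.94 with an interval of 0.17 to 1.71 (adjusted p = 0.282). Hic1 gave 1.14, from 0.28 to 2.0 (adjusted p = 0.244). Fam169b gave 0.75, from 0.13 to 1.38 (adjusted p = 0.286). Exact two-sided permutation tests of the CPM values gave p = 0.1 for Hic1, the smallest that 3 against 3 libraries can give, and p = 0.2 for Lepr, Itga11 and Fam169b. At 6 to 63 counts per library, rises of this size could not be told from the spread between libraries once all genes were considered.

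The difference of the log2 fold changes, E9.5 minus E9.0, was 0.86 ± 0.14 (SE) for Cd44 and 0.86 ± 0.34 for Lepr. Hic1 gave 0.04 ± 0.57 and Itga11 0.32 ± 0.46, while Fam169b gave 0.55 ± 0.40 and Adamtsl3 0.74 ± 0.69. With standard errors of this size no order can be read among the 5 genes other than Cd44. The E9.5 values by which the genes were chosen enter these differences and the changes with stage given above, so all of them are descriptions. The median log2 fold change over all tested genes was below 0.01 in size at each stage.

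**Figure D2:**
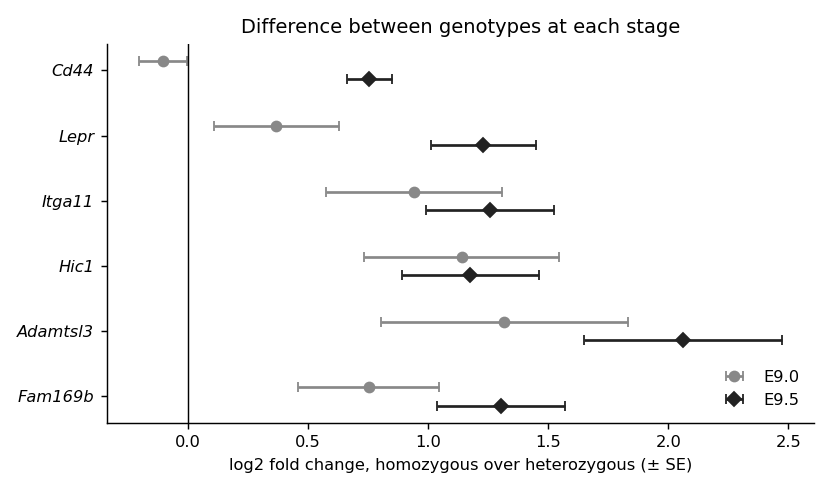
Log2 fold change of homozygous over heterozygous heads for each gene at E9.0 (circles) and E9.5 (diamonds), with bars of ± 1 SE. Cd44 lies at -0.10 at E9.0 and 0.76 at E9.5, while Hic1 lies at 1.14 and 1.18.

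The rule has a threshold, and the genes on either side of it had nearly the same values. The 176 genes that were called higher at E9.5, with a mean of at least 10 counts and no overlap between groups, were ranked by log2 fold change. Adamtsl3 came first at 2.06, followed by Fam169b at 1.30, Itga11 at 1.26, Lepr at 1.23 and Hic1 at 1.18. Just outside were Rasd1 at 1.14, which encodes a small GTPase of the Ras family, and Cdkn1a at 1.11, the cell cycle inhibitor and p53 target. Cd44 was not among the largest, at 0.76. All 6 genes were called at E9.5, against 1.19% of tested genes called higher, and their groups did not overlap, against 11.4%, and the rule fixed both counts.

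Levels can be compared between genes only per length. On the scale of CPM per kilobase of exon, the heterozygous E9.5 level was 1.84 for Cd44, 0.344 for Lepr, 0.176 for Hic1, 0.161 for Itga11, 0.101 for Fam169b and 0.0264 for Adamtsl3. The homozygous levels were 3.11, 0.800, 0.395, 0.383, 0.251 and 0.115 in the same order. Hic1 and Itga11 are neighbours in this order whose levels per length did not differ beyond their spread. By mean CPM over the 12 libraries, Cd44 stood at percentile 46.7 of the tested genes and Lepr at 23.9. The other 4 lay between percentiles 5.66 and 14.6.

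**Figure D3:**
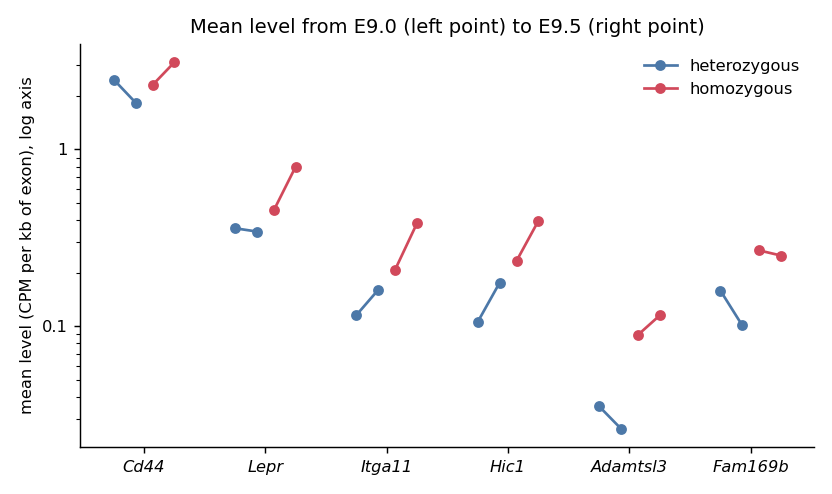
Mean level in CPM per kilobase of exon (log axis) of each gene at E9.0 (left point) and E9.5 (right point), joined by a line for heterozygous (blue) and homozygous (red) heads. The control lines of Cd44, Lepr, Adamtsl3 and Fam169b run downward, and the mutant lines of Cd44, Lepr, Itga11, Hic1 and Adamtsl3 run upward.

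The genes lie on 5 chromosomes. In GENCODE M21 on GRCm38, Cd44 spans chr2:102811141-102901665 on the minus strand and Lepr chr4:101717404-101815352 on the plus strand. Itga11 spans chr9:62677826-62783982 on the plus strand and Hic1 chr11:75164565-75169519 on the minus strand. Both of the other genes are on chromosome 7, Fam169b at chr7:68273839-68363092 and Adamtsl3 at chr7:82335694-82614450, each on the plus strand. Of 13 neighbours or overlapping genes, 8 passed the filter and 0 were called at either stage by edgeR. Among all tested genes 1.19% were called higher and 0.702% lower at E9.5, and 0.432% higher at E9.0. A count of 0 among 8 therefore says little about the neighbours. At E9.5 the lowest adjusted p in edgeR was 0.160, for Slc1a2 beside Cd44, a glutamate transporter gene at -0.41. Smg6, which encodes an endonuclease of nonsense-mediated decay, overlaps Hic1 by 3072 bases on the opposite strand in RefSeq, and it gave -0.05 at E9.5 (adjusted p = 0.810). In GENCODE M21 Smg6 does not overlap Hic1 and ends 116 bases from it. Gm16157 overlaps Fam169b by 2756 bases on the opposite strand. The annotation and strand setting of the counting are not given in the sources used here, so reads in these overlaps could not be assigned with certainty.

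The genes closest to each in their pattern over the 12 libraries were found by the root mean square difference of log2 CPM, each profile centred on its own mean. For Cd44 these were Dysf, which encodes a membrane repair protein, at 0.149, Igfbp5, an insulin-like growth factor binding protein, at 0.152, and Abi3 at 0.158. For Lepr they were Col15a1, a basement membrane collagen chain, at 0.214, the cation channel Trpc6 at 0.240 and the matrix protein gene Tgfbi at 0.249. Col15a1 held 9.02 CPM in heterozygous and 17.1 CPM in homozygous heads at E9.5, and Tgfbi 19.5 and 36.1 CPM. For Itga11 they were Lrrc32, which encodes a cell surface protein that holds latent TGF-beta, at 0.309, then Bend6 at 0.322 and Shroom1 at 0.341. For Hic1 they were Pcp4 at 0.287, Lrrc32 at 0.289 and Ak1, an adenylate kinase gene, at 0.334. Hic1 had rank 4 among the genes most like Itga11, and Itga11 rank 5 among those most like Hic1. Over all pairs of the 6 genes the ranks ran from 2, for Fam169b beside Adamtsl3, to 13685, for Adamtsl3 beside Cd44. The profiles include the E9.5 libraries by which the 6 genes were chosen, so likeness among them is a description and carries no test. For Adamtsl3 the distances were larger, with Fam169b at 0.541 and Mt3, a metallothionein gene, at 0.554. For Fam169b they were Tbx1, a transcription factor gene of pharyngeal mesoderm, at 0.295, and Kirrel3 at 0.311. The distances of low genes include counting noise, and the same 3 genes came out for each of the 6 with a prior count of 0.5 in place of 2.

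The pathways around the 6 genes were described from 6 lists. Together they held 86 tested genes, of which 6 rose at E9.5 and 0 fell, so 6.98% were called higher against 1.19% of all tested genes. Their median log2 fold changes were 0.01 (E9.0) and 0.10 (E9.5), and 0 of the 86 genes were called in the difference between stages, against 0.0675% of all tested genes. Scaling by total counts alone ended the call of all 6 genes at E9.5, with adjusted p-values from 0.203 to 0.865, while their log2 fold changes hardly moved, from 0.24 to 0.52 with TMM and from 0.24 to 0.51 with total counts alone.

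Of 18 tested genes of hyaluronan and Cd44, 1 rose at E9.5, Has2, which encodes the main hyaluronan synthase of the embryo, and 16 were above 0 with a median of 0.14. Has2 measured 56.7, 45.3 and 48.6 CPM in heterozygous heads and 76.1, 76.2 and 60.8 CPM in homozygous ones, which is 0.50 ± 0.09 (SE) on the log2 scale with an adjusted p of 0.00868 in edgeR. The groups did not overlap, and Has2 remained called without any single library, while in a fit of the E9.5 groups alone its adjusted p was 0.0886. At E9.0 the list held 0 called genes of 18 and a median of 0.08.

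Of 16 tested collagen-binding integrins, their collagens and adaptors, 1 rose at E9.5, Itga1, which like Itga11 encodes a collagen-binding alpha chain. Its mean was 10.7 ± 1.60 CPM in heterozygous and 15.3 ± 1.41 CPM in homozygous heads (SD, n = 3 each), which is 0.52 on the log2 scale with an adjusted p of 0.0322 in edgeR. The call was lost without heterozygous replicate 2 (adjusted p = 0.126) and without homozygous replicate 1 (0.0512), 2 (0.101) or 3 (0.160), and in a fit of the E9.5 groups alone (0.0578). Itgb1, the shared beta chain, measured 331 ± 17.9 and 384 ± 2.68 CPM (SD, n = 3 each), which is 0.21 on the log2 scale with an adjusted p of 0.227 in edgeR. The list's medians were -0.01 (E9.0) and 0.16 (E9.5), and at E9.5 14 of 16 genes were above 0.

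Of 16 tested genes of leptin receptor signalling, 2 rose at E9.5, both receptors of the same cytokine receptor family. Lifr, the receptor for leukaemia inhibitory factor, had means of 52.4 ± 4.59 and 68.1 ± 1.95 CPM (SD, n = 3 each), which is 0.38 on the log2 scale with an adjusted p of 0.00662 in edgeR, and its call held without any single library. Il6st, the signal chain shared by that family, had means of 89.5 ± 2.32 and 106 ± 3.18 CPM (SD, n = 3 each), which is 0.24 on the log2 scale with an adjusted p of 0.0253 in edgeR. Without each of the 6 E9.5 libraries in turn the adjusted p of Il6st was between 0.0508 and 0.101, so the call was lost each time. Lep, the ligand, had 0 to 2 counts per library and was not tested.

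Of 13 tested partners and targets of Hic1, 0 were called at E9.5 in edgeR. The list's medians were -0.02 at E9.0 and -0.04 at E9.5. Of 22 tested ADAMTS-like and microfibril genes, 2 rose at E9.5. Ltbp1, which encodes a protein that holds latent TGF-beta in the matrix, gave 0.31 (edgeR adjusted p = 0.0202), and Thsd4, an ADAMTS-like family member, gave 0.40 (adjusted p = 0.0258). The call of Ltbp1 was lost without heterozygous replicate 1 (0.0595) or 3 (0.0636) or homozygous replicate 2 (0.124). The call of Thsd4 was lost without heterozygous replicate 2 (0.0515) or 3 (0.0947) or homozygous replicate 1 (0.0764) or 2 (0.138). Fbn2, a fibrillin gene, gave 0.33 at E9.5 (adjusted p = 0.128).

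**Figure D4:**
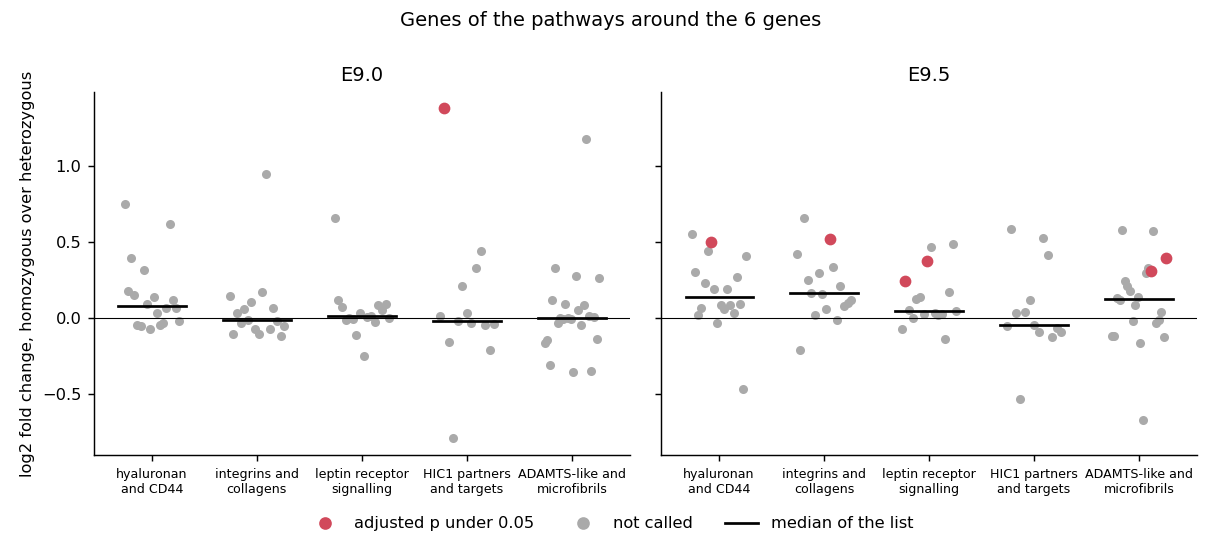
Log2 fold change of homozygous over heterozygous heads at E9.0 (left) and E9.5 (right) for every tested gene of 5 lists around the 6 genes; red points passed an adjusted p of 0.05, grey points did not, and the black line is the list's median. At E9.5, 6 points are red and all lie above 0.

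Markers of other cell types moved with genotype at E9.5, and their part in the levels of the 6 genes was not tested. Among all tested genes 1.19% were called higher, 0.702% lower and 49.2% had a log2 fold change above 0 at that stage. Of 8 endothelial markers 6 rose at E9.5 and 8 were above 0, and their summed level was 148 to 214 CPM in heterozygous and 279 to 313 CPM in homozygous heads. Of 9 markers of cranial paraxial and pharyngeal mesoderm 2 rose, among them Tbx1, and 9 were above 0, with summed levels of 85.1 to 126 and 139 to 193 CPM. Of 12 markers of facial ectomesenchyme, the mesenchyme derived from neural crest, 7 fell and 0 rose, with a median log2 fold change of -1.08. The 6 leukocyte markers, of which 2 passed the filter, summed to 0.880 to 3.09 CPM in heterozygous and 1.58 to 3.07 CPM in homozygous heads at E9.5. Some sums also stood apart at E9.0, the stage at which the 4 genes were tested. There the endothelial sum was 219 to 240 CPM in heterozygous and 262 to 276 CPM in homozygous libraries, the epithelial sum 346 to 412 and 434 to 461 CPM, and the sum of migrating neural crest markers 279 to 288 and 234 to 259 CPM. The leukocyte sum was 0.220 to 0.559 CPM in heterozygous and 0.751 to 1.15 CPM in homozygous libraries at E9.0.

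Some libraries stood apart. Heterozygous replicate 2 at E9.5 was the lowest of its group in endothelial markers, at 148 CPM against 204 and 214 CPM, and in general mesenchyme markers, at 1004 CPM against 1624 and 1674 CPM. Without it the E9.5 log2 fold changes were 0.76 for Cd44, 0.97 for Lepr, 1.13 for Itga11, 0.98 for Hic1, 1.85 for Adamtsl3 and 1.18 for Fam169b. Heterozygous replicate 1 at E9.5 held 23.0 CPM of yolk sac endoderm markers, against at most 2.14 CPM in any other library. In heterozygous replicate 1 at E9.0, 37.4% of counts came from the ribosomal RNA gene Rn45s. Without it the E9.0 values were -0.08 for Cd44, 0.44 for Lepr, 1.26 for Itga11, 1.19 for Hic1, 1.23 for Adamtsl3 and 0.90 for Fam169b.

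**Figure D5:**
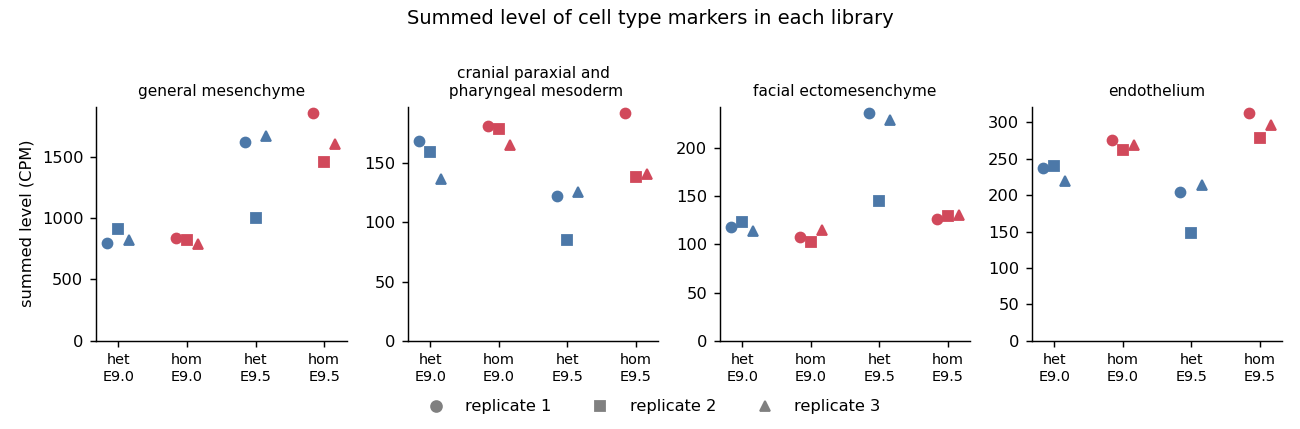
Summed level in CPM of 4 lists of cell type markers in each library (vertical axes from 0), with heterozygous libraries in blue and homozygous ones in red; symbols mark the replicates. At E9.5 the endothelial sum is 148 to 214 CPM in heterozygous and 279 to 313 CPM in homozygous libraries, while the general mesenchyme sums overlap.

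Library totals ran from 13914543 to 31172708 counts, with 17311 to 19783 genes detected. The targeted gene was lower in homozygous heads at E9.0, where Eftud2 measured 286 ± 14.6 CPM in heterozygous and 234 ± 1.95 CPM in homozygous libraries (SD, n = 3 each; log2 fold change -0.29, edgeR adjusted p = 0.0193). At E9.5 the means were 256 ± 8.43 and 224 ± 2.96 CPM (log2 fold change -0.19, edgeR adjusted p = 0.0906). The E9.0 call was lost without heterozygous replicate 1 (adjusted p = 0.0645) or homozygous replicate 1 (0.0601) or 3 (0.0713), and with total counts alone (0.751).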

How the data were processed

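RNA-seq libraries of mouse embryo heads were compared, 12 in 4 groups of 3 taken from the labels. The authors deposited a table of raw counts per gene symbol, with no normalization. Per the submitters' processing notes, cutadapt, STAR, featureCounts and MultiQC were used with build mm10; versions, annotation and strand setting are not given in the sources used here. All 12 columns matched samples. In R 4.3.3, edgeR 4.0.16 (filterByExpr, TMM, robust quasi-likelihood F test, 1 mean per group) tested 14810 of 24421 symbols, two-sided, with Benjamini-Hochberg adjustment over all of them at 0.05. All 6 genes passed the filter. Standard errors were derived from the F statistic. The fit was tested on simulated data. Alternatives were other scalings, filters, DESeq2 1.42.0, limma 3.58.1 (voom), a replicate block, the compared groups alone and leaving out each library. Intervals on counts cover counting error only. The members, gene lists and marker lists were chosen with earlier results of these data known.

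The text names all 6 genes, Eftud2, the called genes and the gene with the highest mean CPM of each list, ligands, partners and neighbours, the next 3 rises at E9.5 and the 3 genes most like each; some genes that this rule names are not reported here. Positions come from GENCODE M21 and promoters from RefSeq, both on GRCm38.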

Additional observations from a re-analysis of the deposited data

Results flagged for a closer look

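The log2 fold change of Cd44 between genotypes differed between the stages, by 0.86 (E9.5 minus E9.0), in the test of genotype by stage over all genes. Cd44 was chosen for this difference, so the value is a description and no p-value is given. The level was 15.2 to 17.9 CPM in heterozygous and 14.4 to 17.4 CPM in homozygous heads at E9.0, and 12.3 to 12.6 CPM and 19.0 to 22.5 CPM at E9.5. With total counts alone as scaling the difference was 0.65.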

How the results depend on the processing

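The E9.5 log2 fold changes of the 6 genes, whose direction their choice fixes, ranged from 0.71 to 2.93 over 92 alternative fits; the highest was Adamtsl3 without heterozygous E9.5 replicate 1. The 4 genes tested at E9.0 were above 0 in all 61 alternative fits and called in 0, with adjusted p-values from 0.155 to 0.851. With total counts alone the E9.0 value of Cd44 turned to 0.097, and the median over all genes at E9.0 was then 0.19; relative to that median Cd44 was still below 0. Its difference between stages was then 0.65. A minimum mean of 50 counts left out Itga11, Hic1, Adamtsl3 and Fam169b.

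The number of genes called at E9.0 was 87, of them 64 higher, 216 with DESeq2, 51 with limma-voom, 75 higher of 78 with total counts alone and 71 higher of 115 with no filter. Without a library it ran from 38 (without homozygous replicate 3) to 86, and was 39 without heterozygous replicate 2. At E9.5 it was 280, of them 176 higher, 448 with DESeq2, and 123 with total counts alone, of them 58 higher. Without a library it ran from 133 (homozygous replicate 2) to 252, with 136 and 168 without homozygous replicates 3 and 1 and 151 without heterozygous replicate 2. The difference between stages gave 10 calls, 76 with DESeq2, 5 with limma-voom, and 1 to 16 without a library.

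With a replicate block the counts were 100 at E9.0, 393 at E9.5 and 21 for the difference between stages, and the call of Eftud2 at E9.0 was lost (adjusted p = 0.0545). Deviations of same-numbered libraries correlated at 0.030 to 0.109, and those of other pairs at the same stage at -0.196 to 0.171. The labels link same-numbered libraries only by that number. Correlations of this size cannot show whether they were paired. Low counts limit Adamtsl3, Hic1 and Itga11.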

Other observations

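Among markers of cell types beside those already described, Tagln, a smooth muscle gene, rose at E9.5 by 0.47 on the log2 scale (adjusted p = 0.0180 in edgeR), Nkx2-5, a heart transcription factor gene, by 0.62 (adjusted p = 0.0444) and Epcam, an epithelial adhesion gene, by 0.31 (adjusted p = 0.0400). Tbx1 of pharyngeal mesoderm rose by 0.96 (adjusted p = 0.00092). Of 5 erythroid markers 0 were called at E9.5, and 0 of 6 neural progenitor markers.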
